A study of Homo sapiens with 6 samples.

Results

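Mitochondrial ribosomal protein genes were followed in the ovarian clear cell carcinoma line ES-2, an established human cell line, after an inhibitor of the microRNA miR-182 was given. The genes were taken from the array annotation by symbol: every MRPL and MRPS gene, together with DAP3 and PTCD3, which encode small subunit proteins under other names. This gave 78 genes with 112 probes, among 18852 named genes and 48803 probes on the array. Of these, 51 genes had 1 probe and 27 had several. Both groups were ES-2 cells transfected with a hairpin inhibitor, a modified RNA that binds a mature microRNA: one group received the inhibitor of miR-182, at 50 nM per the labels, and the other a negative control inhibitor based on a worm microRNA with little identity to human ones. RNA was taken 48 h after transfection from 3 biological replicates per group, with 1 array each. All 6 arrays come from 1 cell line, and the extent of miR-182 inhibition was not measured on them. The design text of the study names a mimic in place of the inhibitor, and the sample labels are followed here.

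Mitochondria make a few subunits of the respiratory chain on their own ribosome, the mitoribosome. Its ribosomal RNAs come from mitochondrial DNA, while all of its proteins are encoded in the nucleus, made in the cytosol and imported. Some of these proteins descend from bacterial ribosomal proteins and others are found only in mitochondria, and the particle has a large subunit, which forms peptide bonds, and a small subunit, which reads the messenger RNA. The numbering of the genes does not always follow the place of the protein: MRPS18A and MRPS30 were first assigned to the small subunit but lie in the large one, and they are counted there.

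The strand that the inhibitor is designed to bind is hsa-miR-182-5p, encoded on the minus strand at chr7:129770447-129770470 (RefSeq, GRCh38.p14). It is shown because its seed, bases 2 to 8 from the 5′ end (capitals), is the stretch by which a microRNA recognises its target transcripts. No target sites were searched in these genes, since no 3′ untranslated sequences were used here.
hsa-miR-182-5p: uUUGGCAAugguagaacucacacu

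The array measured a mean intensity over a median of 40 to 41 beads per probe, and between 20365 and 22473 of the probes on each array were detected above background (detection p under 0.05). Intensities were background corrected, quantile normalized and taken to log2, and every value and difference below is on that scale unless said otherwise. Of the 78 genes, 77 were detected on all 6 arrays and tested, each by its brightest probe. The exception was PTCD3, a pentatricopeptide repeat protein of the small subunit, whose 1 probe was detected on 1 array of each group and has no difference here. MRPL27, a bacterial-type protein of the large subunit, and MRPS36, now known as a part of the 2-oxoglutarate dehydrogenase complex, had no named probe. Of 11 clear cell and epithelial markers on the array, 5 were detected on all 6 arrays (ANXA4, KRT7, KRT8, KRT18 and MUC1), while CDH1, KRT19, NAPSA and GPX3 were detected on none. All 6 mesenchymal markers were detected on all 6 arrays. Of 6 white blood cell markers, CD14 and CD68 were detected on all 6 arrays and PTPRC and ITGAM on none. Of 5 endothelial markers, PECAM1, CDH5 and TIE1 were detected on all 6 and VWF on none. Of 6 fibroblast markers, PDGFRA and COL1A1 were detected on all 6 and LUM and POSTN on none. The summed log2 levels of each of these 5 lists, undetected markers included, overlapped between the groups. Single markers did not all overlap. MUC1 (−0.21 ± 0.069) and ANXA4 (−0.27 ± 0.092), both dim, and TWIST1 (−0.13 ± 0.064) were lower on all inhibitor arrays (inhibitor minus control ± SE). Of 6 clear cell and epithelial markers tested, 5 lay below 0 and 2 had an unadjusted p under 0.05 in limma. None passed the adjusted test.

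The promoters of the genes were searched for motifs, which the choice by symbol did not use. RefSeq promoter windows (GRCh38.p14), each running from 250 bases before to 50 bases after the annotated start, were at hand for 70 of the 78 genes, and 6 motifs were searched in them on both strands. An ETS motif (CCGGAAG), the core bound by the ETS factor family, stood in 28 of 70 windows (40.0%), against 18.4% of the windows of 9882 genes tested on the arrays and 10.7% of all 27305 windows. A YY1 motif (AAGATGGCG), bound by the zinc finger factor YY1, stood in 14 windows (20.0%), against 3.87% of genes tested and 1.85% of all windows. Of its 15 matches, 11 began after the annotated start, 6 to 35 bases past it, and none overlapped an ETS match. The NRF1 motif (GCGC and TGCGC with any base between them), the site of nuclear respiratory factor 1, stood in 8 windows (11.4%), close to its share among genes tested (11.6%) and above that of all windows (6.28%). An SP1 motif (GGGCGG) stood in 62.9% of the windows, against 67.4% of genes tested and 44.6% of all. The CCAAT box (CCAAT) stood in 28.6%, against 37.2% and 35.7%. The TATA box (TATAAA) stood in 2 windows (2.86%), against 6.46% of genes tested. At least 1 of the ETS, YY1 and NRF1 motifs stood in 43 of the 70 windows (61.4%), against 30.0% of genes tested, and 27 windows held none of them. These shares are descriptions of letters, not of binding, and no test was made of them. Where a gene had several annotated starts, as 12 of the 70 did, the first listed was used. Counting a match at any start gave 41.4% for ETS and 20.0% for YY1, against 21.2% and 4.52% of genes tested.

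**Figure D1:**
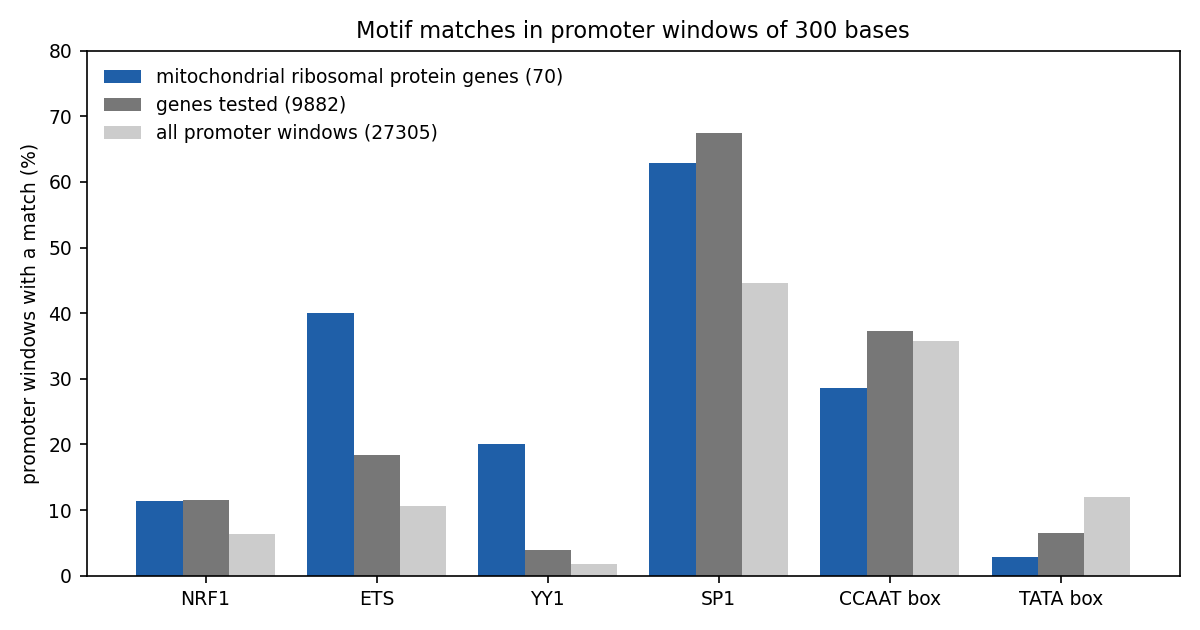
Share of promoter windows (vertical axis, percent) with at least 1 match to each of 6 motifs (horizontal axis), for 70 mitochondrial ribosomal protein genes (blue), 9882 genes tested (grey) and all 27305 windows (light grey). The ETS bars read 40.0%, 18.4% and 10.7%, and the YY1 bars 20.0%, 3.87% and 1.85%.

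The 4 windows below show these arrangements, with ETS, YY1 and NRF1 matches, on either strand, in capitals. MRPS34 (minus strand, chr16:1773085-1773384) carries 3 ETS matches in the 71 bases before its start, the most of any member together with MRPS22. MRPS18A (minus strand, chr6:43687742-43688041) carries an ETS match 31 bases before its start and a YY1 match 9 bases after it. MRPL52 (plus strand, chr14:22829637-22829936) is the 1 member with a pair of YY1 matches, followed by an ETS match. MRPL46 (minus strand, chr15:88467339-88467638) stands back to back with another member, MRPS11, and holds a YY1 match. They were chosen after the motif search and the differences were seen.
MRPS34: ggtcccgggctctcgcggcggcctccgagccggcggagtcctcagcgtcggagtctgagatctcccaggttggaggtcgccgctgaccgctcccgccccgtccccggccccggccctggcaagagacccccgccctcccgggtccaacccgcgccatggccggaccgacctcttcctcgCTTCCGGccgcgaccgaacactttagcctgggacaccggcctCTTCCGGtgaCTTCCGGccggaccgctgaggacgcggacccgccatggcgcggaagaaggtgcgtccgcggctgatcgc
MRPS18A: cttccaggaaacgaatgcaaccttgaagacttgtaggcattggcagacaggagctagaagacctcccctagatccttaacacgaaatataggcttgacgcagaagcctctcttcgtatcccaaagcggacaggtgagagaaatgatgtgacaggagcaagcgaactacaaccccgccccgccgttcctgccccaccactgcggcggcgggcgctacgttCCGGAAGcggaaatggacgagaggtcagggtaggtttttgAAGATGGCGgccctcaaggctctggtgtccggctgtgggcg
MRPL52: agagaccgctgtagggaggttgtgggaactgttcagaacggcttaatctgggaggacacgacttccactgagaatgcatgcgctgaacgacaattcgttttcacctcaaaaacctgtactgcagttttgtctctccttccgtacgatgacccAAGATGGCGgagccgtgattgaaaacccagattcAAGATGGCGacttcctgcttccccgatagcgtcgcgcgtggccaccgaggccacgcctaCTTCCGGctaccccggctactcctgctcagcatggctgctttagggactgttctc
MRPL46: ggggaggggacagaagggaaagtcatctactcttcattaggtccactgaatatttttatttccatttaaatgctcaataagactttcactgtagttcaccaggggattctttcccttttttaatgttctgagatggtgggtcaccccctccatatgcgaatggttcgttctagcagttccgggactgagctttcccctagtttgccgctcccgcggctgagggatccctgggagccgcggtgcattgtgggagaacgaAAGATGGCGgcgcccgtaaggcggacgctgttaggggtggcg

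No mitochondrial ribosomal protein gene differed between the groups past the test. By the brightest probe of each gene, the differences of those tested lay within 1.18-fold. Of 77 genes, 0 were higher and 0 lower with the inhibitor at an adjusted p under 0.05 (limma, Benjamini-Hochberg over 12087 genes tested), where 0.00% of all genes tested passed. The lowest adjusted p among them was 0.602. The unadjusted p was under 0.05 for 6 of these genes (7.79%), all 6 lower with the inhibitor, against 7.65% of all genes tested in either direction, 4.15% lower and 3.50% higher. That count of 6 came to 2 without control replicate 2 and to 1 without control replicate 3, where 6.16% and 5.52% of all genes tested had such a p. It came to 12 with an intensity trend and robust prior in limma and to 12 without background correction. Of all genes tested, 8.22% and 8.25% had such a p under these settings. In both, 1 of the 12 members was higher, and 0 members were past the adjusted test.

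The log2 differences, inhibitor minus control, ran from −0.24 to 0.18, and 55 of the 77 lay within 0.1 of 0. The median was −0.035, against 1.5e-05 for all genes tested, and 52 of 77 genes (67.5%) lay below 0, against 50.0% of all genes tested. The median came to −0.061 without control replicate 1 and to −0.026 without inhibitor replicate 1. Without normalization between arrays it was −0.075, with 79.2% of members and 55.6% of all genes below 0. After median scaling it was −0.099, with 87.0% and 65.3% below 0, and the medians of all genes tested were then −0.014 and −0.037. For a typical member the 95% interval reached 0.16 (1.12-fold) to each side. No interval of a member tested by its brightest probe, each taken on its own, reached past 0.48, which is 1.39-fold. In every fit with 1 array left out, 34 genes stayed below 0 and 15 above it. The median SD between replicates was 0.077 over these genes, against 0.095 over all genes tested. The error to be had from the spread of beads had a median of 0.054 over these genes. It was taken from the deposited intensities, before background correction and normalization, so it is not on the same scale as the SD.

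**Figure D2:**
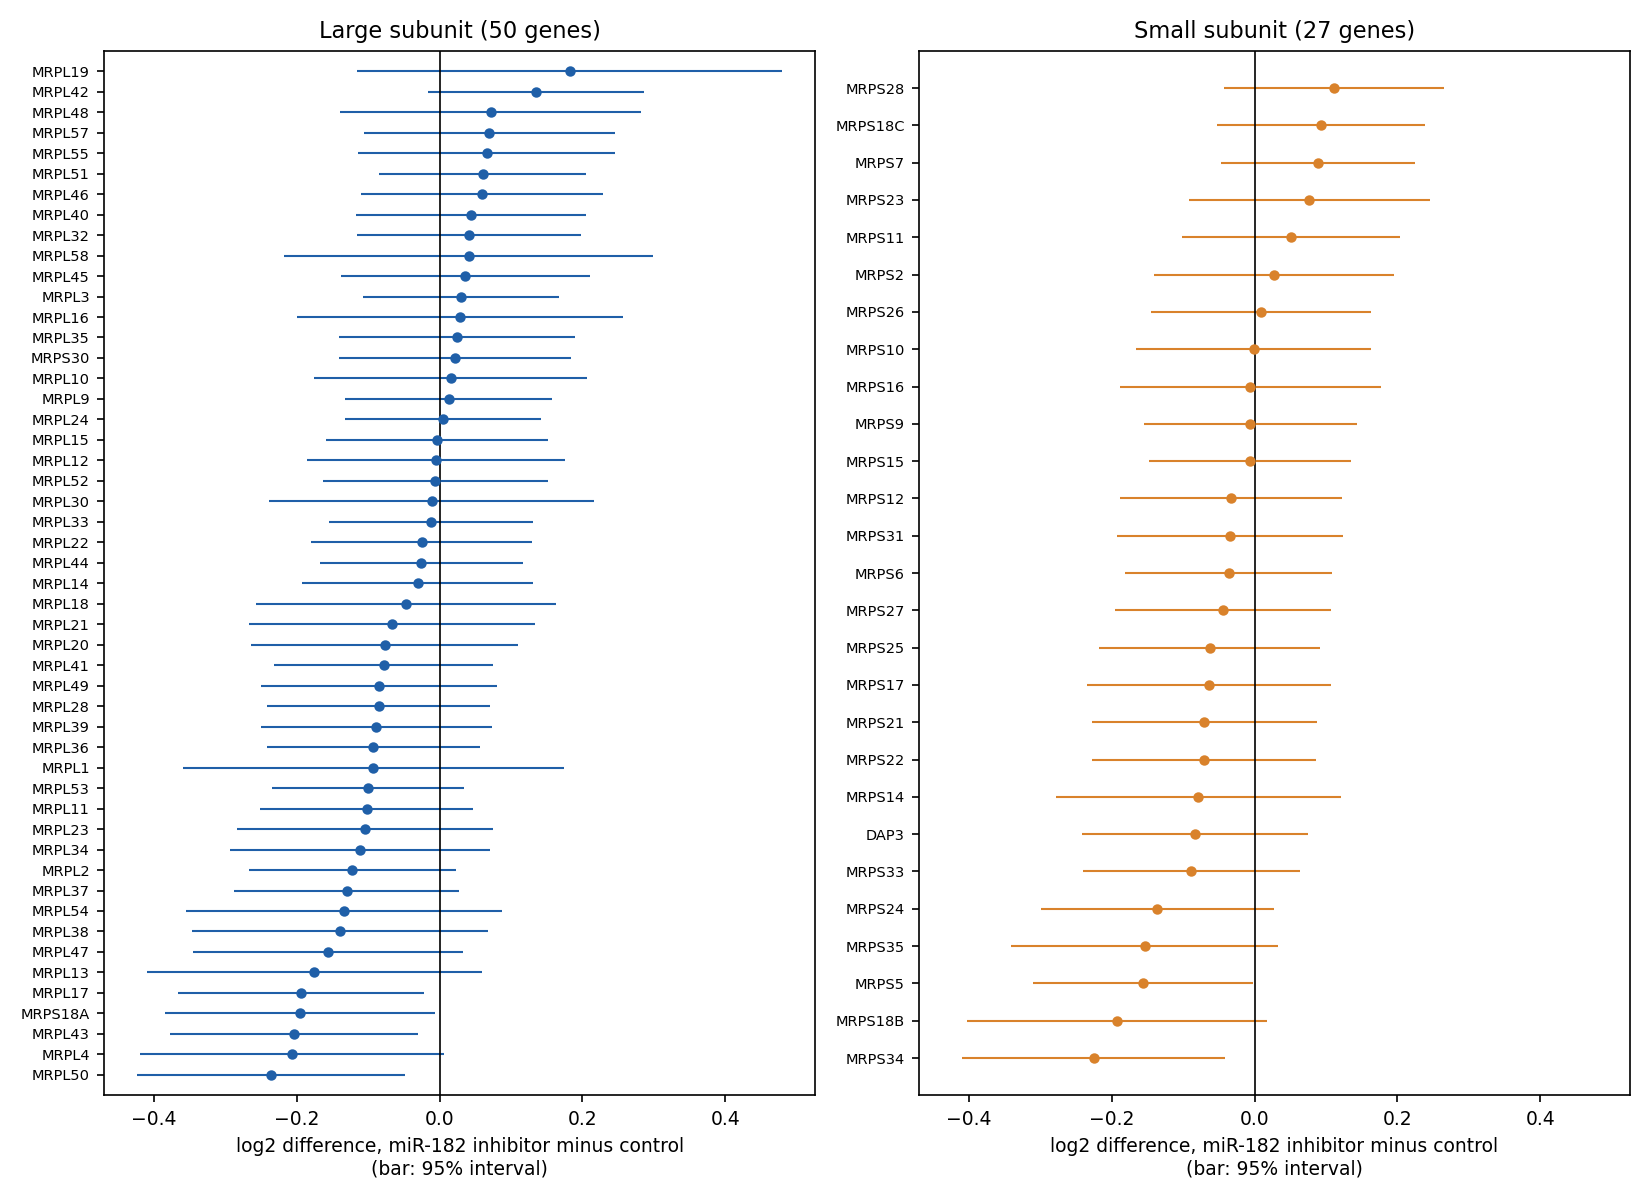
Log2 difference (horizontal axis, inhibitor minus control, n = 3 arrays per group) of each tested member of the large subunit (blue, left) and small subunit (orange, right), ordered by size, with its 95% interval from limma. Points run from −0.24 for MRPL50 to 0.18 for MRPL19, and 6 intervals exclude 0, all of them below it.

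Among the 6 genes below 0 at an unadjusted p under 0.05, 4 encode proteins of the large subunit. MRPL50, a protein found only in mitochondrial ribosomes, had log2 intensities of 10.01, 9.95 and 9.84 with the inhibitor and 10.16, 10.30 and 10.04 in the control. All 3 inhibitor values lay below all 3 control values, with control replicate 2 the highest. Its difference was −0.24 ± 0.083 (SE, adjusted p = 0.602 in limma). MRPL43, also without a bacterial counterpart, had 10.31, 10.19 and 10.38 with the inhibitor and 10.39, 10.56 and 10.54 in the control. The groups did not overlap but came within a step of each other, inhibitor replicate 3 lying next to control replicate 1, and the difference was −0.20 ± 0.077. MRPL17, the counterpart of bacterial L17, stood at 11.06, 11.08 and 11.05 with the inhibitor, a very narrow spread, and at 11.24, 11.14 and 11.39 in the control. Its groups did not overlap either, and its difference was −0.19 ± 0.076, or −0.13 without control replicate 3. MRPS18A, whose window with an ETS and a YY1 match is printed above, had 7.93, 8.06 and 7.89 against 8.03, 8.14 and 8.29. Here the groups overlapped, since inhibitor replicate 2 lay above control replicate 1, and the difference was −0.20 ± 0.084. Adjusted p-values in limma were 0.602 for MRPL43, 0.615 for MRPL17 and 0.635 for MRPS18A.

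The remaining pair belongs to the small subunit. MRPS34, a mitochondria-specific protein needed for a stable small subunit, is the gene with 3 ETS matches shown above. It had log2 intensities of 8.09, 8.06 and 8.05 with the inhibitor and 8.13, 8.43 and 8.32 in the control. The inhibitor arrays lay close together, and control replicate 1 lay just above them and apart from the other control arrays. The difference was −0.23 ± 0.081 (SE, adjusted p = 0.602 in limma) and ran from −0.30 to −0.16 with 1 array left out. MRPS5, the counterpart of bacterial S5, which lies where messenger RNA enters the ribosome, had 9.55, 9.60 and 9.64 against 9.76, 9.67 and 9.83. Its groups came close without overlapping, and its difference was −0.16 ± 0.068 (adjusted p = 0.643 in limma).

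**Figure D3:**
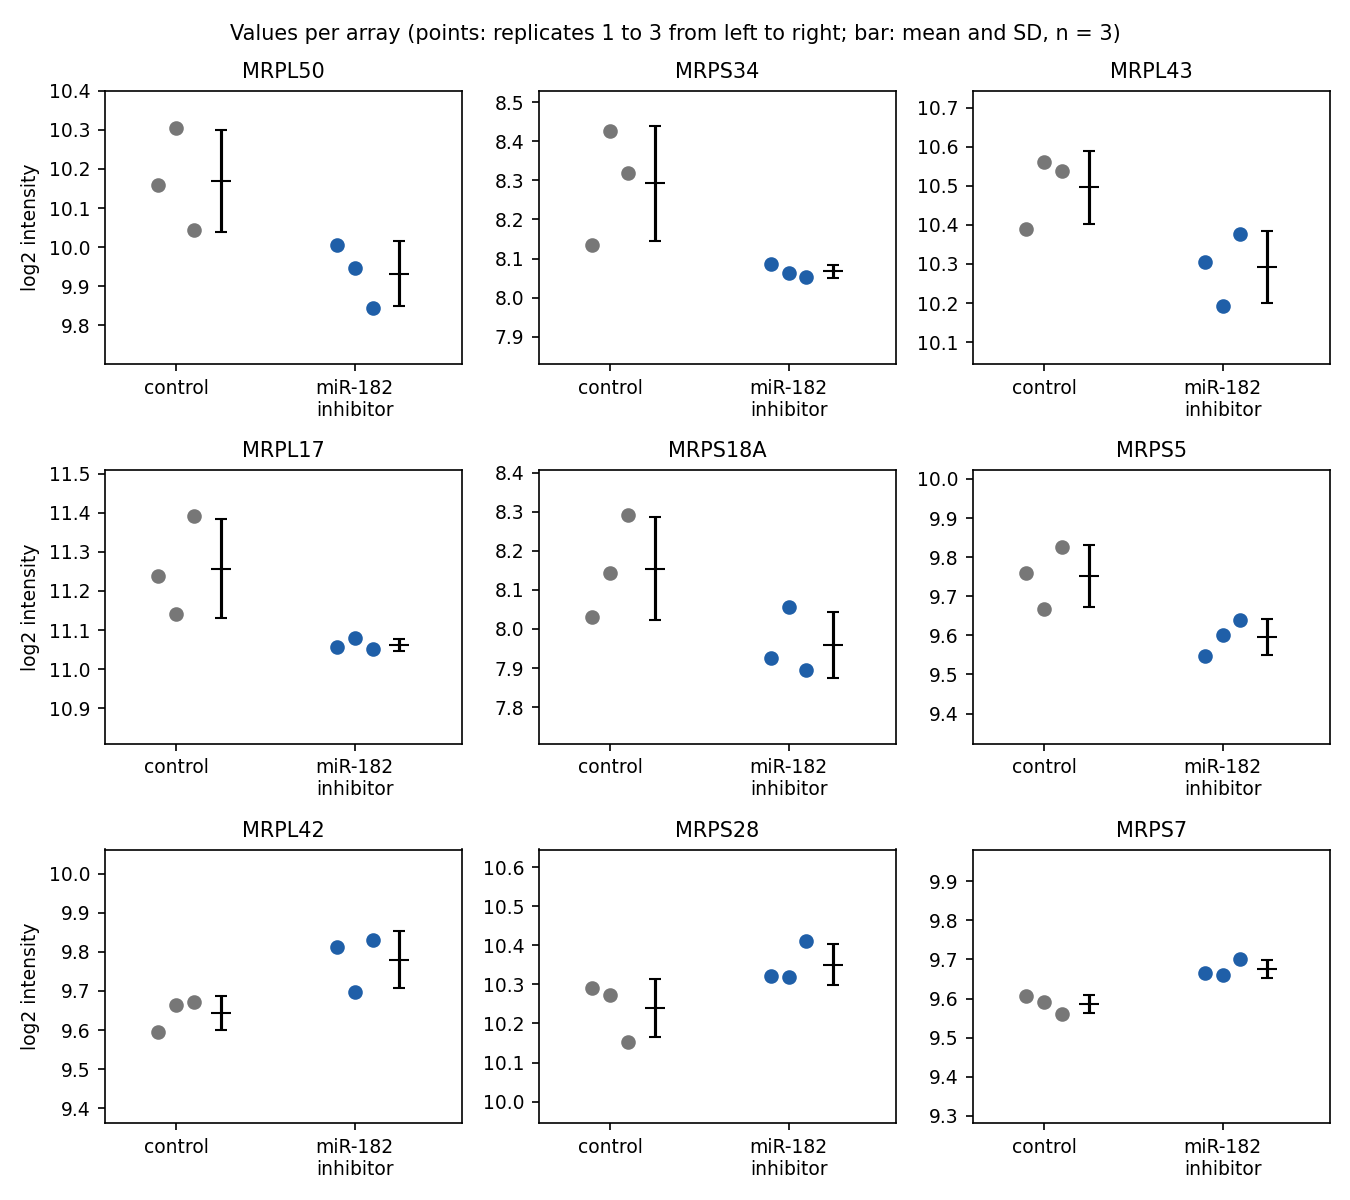
Log2 intensity (vertical axis) of 9 genes on each control array (grey) and inhibitor array (blue), with the mean and SD of each group (n = 3); each panel spans the same 0.7 log2 units. The 6 genes of the upper rows lie lower with the inhibitor, MRPS18A with overlap, and MRPL42, MRPS28 and MRPS7 in the bottom row lie higher without overlap.

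In all, the 3 inhibitor values lay entirely below the control values in 9 of 77 genes (11.7%), where 6.23% of all genes tested did so, and entirely above them in 3 (3.90%), where 6.80% did so. Besides the 5 described, the lower ones were MRPL2, MRPS24, MRPL37 and MRPL53, of which the last pair is named after its values were seen. MRPL2, the counterpart of a bacterial protein next to the peptidyl transferase centre, had 8.34, 8.38 and 8.34 against 8.41, 8.53 and 8.49. MRPS24, the counterpart of bacterial S3, had 11.45, 11.32 and 11.54 against 11.55, 11.59 and 11.57, so inhibitor replicate 3 lay just under the control arrays. Their differences were −0.12 ± 0.064 and −0.14 ± 0.072, or −0.078 for MRPS24 without inhibitor replicate 2. MRPL37 and MRPL53, both mitochondria-specific, differed by −0.13 ± 0.070 and −0.10 ± 0.060. MRPL37 had a mean of 12.03 ± 0.042 with the inhibitor and 12.16 ± 0.091 in the control (SD, n = 3), with control replicate 3 above the other arrays. MRPL53 had 8.98 ± 0.020 against 9.08 ± 0.015, and both groups were tight. None of these 4 had an unadjusted p under 0.05 in limma.

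Large differences below 0 also occurred where the groups overlapped. MRPL4, whose bacterial counterpart lines the peptide exit tunnel, had 7.98, 8.14 and 7.78 with the inhibitor and 8.17, 8.24 and 8.11 in the control, with inhibitor replicate 2 above control replicate 3. Its difference was −0.21 ± 0.094, and it came to −0.11 without inhibitor replicate 3. MRPS18B, the small subunit member of the S18 family without a direct bacterial counterpart, had 10.81, 10.54 and 10.48 against 10.73, 10.82 and 10.84, so inhibitor replicate 1 lay inside the control range and the other inhibitor arrays below it. Its difference was −0.19 ± 0.093 and its 95% interval −0.40 to 0.017.

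On the other side of 0, no gene had an unadjusted p under 0.05 by its brightest probe in the fit as reported. MRPL42, a mitochondria-specific protein of the large subunit, came closest in the test, with 9.81, 9.70 and 9.83 with the inhibitor and 9.59, 9.67 and 9.67 in the control. The groups did not overlap, though inhibitor replicate 2 lay just above the control arrays, and the difference was 0.14 ± 0.067 (SE, adjusted p = 0.686 in limma). MRPS28, the counterpart of bacterial S1, had 10.32, 10.32 and 10.41 against 10.29, 10.27 and 10.15, and its difference of 0.11 ± 0.068 came to 0.068 without control replicate 3. MRPS7, the counterpart of the bacterial protein that starts assembly of the small subunit head, had 9.67, 9.66 and 9.70 against 9.61, 9.59 and 9.56. Both groups of MRPS7 were tight and did not overlap, at a difference of 0.089 ± 0.060. MRPL19, the counterpart of bacterial L19, had the difference farthest above 0, 0.18 ± 0.13, but values of 7.92, 8.20 and 7.70 against 7.75, 7.95 and 7.57. These ranges overlapped widely, and the difference came to 0.053 without inhibitor replicate 2. The other members taken by the rule for named genes overlapped between the groups as well: MRPS18C lay at 0.093 ± 0.065, MRPS23 at 0.077 ± 0.075, MRPL57 at 0.070 ± 0.078 and MRPL55, the counterpart of bacterial L31, at 0.066 ± 0.080. MRPL51, a mitochondria-specific protein, lay at 0.060 ± 0.064, or −0.0060 after median scaling, and MRPL46 at 0.059 ± 0.075.

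Of the other members chosen for their place in the particle, none had an unadjusted p under 0.05. MRPS12, the counterpart of the decoding-centre protein S12, had 10.80, 10.91 and 10.84 with the inhibitor and 10.80, 10.92 and 10.94 in the control. The ranges overlapped, and the difference was −0.032 ± 0.069 (95% interval −0.19 to 0.12). MRPL12, the stalk protein that contacts translation factors, had 10.49, 10.53 and 10.49 against 10.42, 10.43 and 10.67, with control replicate 3 above all other arrays. Its difference of −0.0050 ± 0.080 came to 0.077 without that array. DAP3, a GTP-binding protein of the small subunit also named for a part in cell death, had 10.76, 10.84 and 10.74 against 10.83, 10.96 and 10.80. Its groups overlapped, and the difference was −0.084 ± 0.070. MRPL58, a peptidyl-tRNA hydrolase built into the large subunit, had 8.49, 8.61 and 8.48 against 8.22, 8.53 and 8.71. The control arrays of MRPL58 spread across the inhibitor values, and the difference of 0.041 ± 0.11 ran from −0.091 to 0.15 with 1 array left out and lay at −0.00083 after median scaling. MRPS30, a large subunit protein despite its name, had 11.12, 11.13 and 11.14 against 11.15, 10.99 and 11.19, with control replicate 2 below all other arrays. Its difference of 0.021 ± 0.072 came to −0.040 without that array and to −0.022 without normalization between arrays.

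The S18 family has 3 members in human mitochondria, each in its own place: MRPS18C in the bacterial S18 position, MRPS18B elsewhere in the small subunit and MRPS18A in the large one. Their differences were 0.093 ± 0.065, −0.19 ± 0.093 and −0.20 ± 0.084. MRPS18C had 11.01, 10.96 and 11.07 with the inhibitor and 10.97, 10.91 and 10.89 in the control, with inhibitor replicate 2 inside the control range. None passed the test, and whether MRPS18C differed from the other members in its response was not tested.

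Grouped by role, the genes showed no count past the test in any class. The 50 large subunit genes had a median of −0.028 with 32 below 0, and the 27 small subunit genes tested one of −0.036 with 20 below 0. The genes were also split into bacterial-type and mitochondria-specific ones. MRPS18A and MRPS18B, though of the S18 family, were counted as mitochondria-specific. In the large subunit, 29 genes of bacterial type ran from −0.21 to 0.18 (median −0.031, 20 below 0) and 21 mitochondria-specific ones from −0.24 to 0.14 (median −0.026, 12 below 0). In the small subunit, 16 genes of bacterial type ran from −0.16 to 0.11 (median −0.0063, 11 below 0) and 11 mitochondria-specific ones from −0.23 to 0.077 (median −0.071, 9 below 0). The differences between classes were not tested. The 28 genes tested whose window held an ETS match had a median of −0.022 and the 41 without one −0.044. For the YY1 motif the medians were −0.025 over 13 genes with a match and −0.035 over 56 without. The NRF1 motif went the same way, at −0.021 over 8 genes with a match and −0.036 over 61 without. The SP1 motif went the other way, at −0.047 over 43 genes and −0.0085 over 26. So did the CCAAT box, at −0.047 over 19 and −0.028 over 50, and the TATA box, at −0.070 over 2 and −0.035 over 67. All of these medians lay below 0, and the contrasts were not tested.

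For 26 of the 77 genes a further probe was detected. The second brightest probe pointed the same way as the brightest in 18 of them and the other way in 8. Both probes of MRPL42 lay above 0, at 0.14 and 0.14. For MRPS18B both lay below it, at −0.19 and −0.15, as did both of MRPL4, at −0.21 and −0.090. MRPL43 had 3 detected probes, at −0.20, −0.23 and, for the dimmest, 0.079. In MRPL57 the brightest probe lay at 0.070 and the second at −0.15. The probe differences farthest from 0 came from dim probes and are named after their values were seen: the dimmest probe of MRPL11 lay at −0.37 where its brighter probes lay at −0.10 and −0.10, and the dimmer probe of MRPL3 at 0.35 where the brighter one lay at 0.030. With every probe fitted on its own, these dim probes had unadjusted p-values of 0.0014 and 0.018 in limma. In that fit 0 probes passed the adjusted test.

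Across arrays, the genes differed little. Relative to each gene's mean over the 6 arrays, the median of the 77 genes lay at −0.055, −0.016 and 0.014 in the 3 inhibitor cultures and at −0.0021, 0.029 and 0.028 in the controls. The groups overlapped, since inhibitor replicate 3 lay above control replicate 1. Inhibitor replicates 1 to 3 held the lowest value for 21, 17 and 14 of the 77 genes, and control replicates 1 to 3 for 10, 9 and 6. The highest value lay on the inhibitor replicates for 5, 10 and 21 genes, and on the control replicates for 7, 17 and 17. These counts were not made over all genes tested. Over all genes tested the median deviations of the arrays lay between −0.0074 and 0.013. In an RNA average of many cells, fewer transcripts per cell and fewer cells with the transcripts cannot be told apart.

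**Figure D4:**
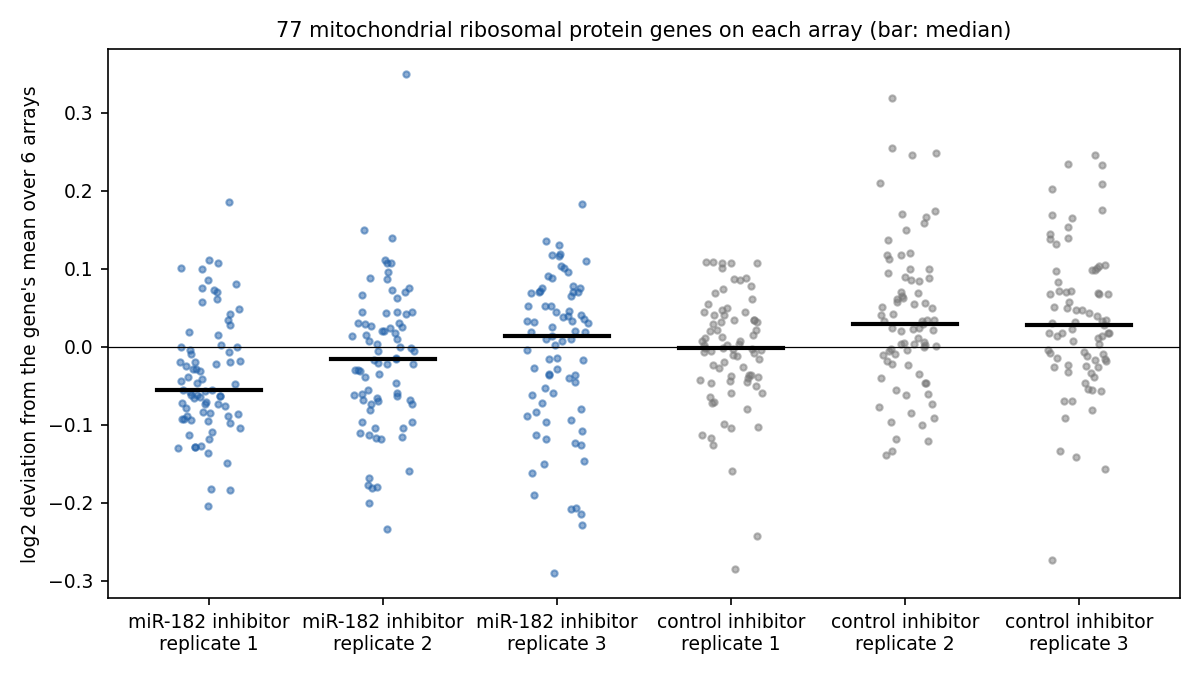
Deviation of each of the 77 genes from its own mean over the 6 arrays (vertical axis, log2 units), for the inhibitor arrays (blue) and control arrays (grey), with the median as a bar. The medians run from −0.055 on inhibitor replicate 1 to 0.029 on control replicate 2, and inhibitor replicate 3 lies among the control arrays.

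Several of the genes share a promoter region with a neighbour read in the other direction. In the RefSeq windows, leaving out neighbours known only by a LOC identifier, 15 such pairs had starts 49 to 435 bases apart, and in 12 of them both genes were tested. MRPL46 and MRPS11, the 1 pair made of 2 members, have starts 320 bases apart and differed by 0.059 ± 0.075 and 0.051 ± 0.068. The second brightest probe of MRPS11 lay on the other side of 0, at −0.050 ± 0.076. MRPS12 stands 181 bases from SARS2, the mitochondrial seryl-tRNA synthetase, and the differences were −0.032 and −0.058. MRPL50, lowest among the members, stands 233 bases from the zinc finger gene ZNF189, which lay at 0.037 ± 0.071. MRPS18C stands 175 bases from the helicase gene HELQ, at 0.16 ± 0.094. In 8 of the 12 pairs both differences, by the brightest probes, had the same sign, and no neighbour had an unadjusted p under 0.05 in limma. The share of same signs was not counted over other gene pairs. The pairs were named after their values were seen.

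Other genes of mitochondrial translation also had 0 calls past the test in every list. Of 26 mitoribosome assembly genes, 15 lay below 0, with a median of −0.026. MRM2, which methylates the large ribosomal RNA of mitochondria, lay at −0.33 ± 0.094, and MTERF3, a regulator of mitochondrial transcription and ribosome assembly, at 0.15 ± 0.060. The groups did not overlap in either, and the adjusted p-values in limma were 0.546 and 0.624. Among 14 translation factors, 7 lay below 0 (median 0.00018), with the release factor MTRF1 at 0.19 ± 0.071 and the initiation factor MTIF3 at −0.17 ± 0.070. Of 19 genes for charging mitochondrial tRNAs, which are aminoacyl-tRNA synthetases and the 3 subunits of the glutamyl-tRNA amidotransferase (QRSL1, GATB and GATC), 12 lay below 0 (median −0.018). The asparaginyl-tRNA synthetase gene NARS2 lay at 0.17 ± 0.069 and QRSL1 at 0.21 ± 0.10. Genes of mitochondrial transcription and RNA had 9 of 17 below 0 (median −0.0024), among them the DNA helicase TWNK at −0.16 ± 0.070, while HSD17B10, a subunit of the mitochondrial RNase P, lay at 0.11 ± 0.067. The protease and import list had 10 of 17 below 0 (median −0.0075), and its lowest p belonged to AFG3L2, a subunit of the inner membrane protease that matures MRPL32. AFG3L2 lay at −0.28 ± 0.10 (adjusted p = 0.602 in limma) and MRPL32 itself at 0.041 ± 0.069, while the chaperone HSPA9 lay at −0.27 ± 0.13.

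The list of regulators of mitochondrial gene expression had 6 of 9 members below 0 (median −0.012) and 0 past the test. GABPA, an ETS family factor, lay at 0.21 ± 0.092 with the inhibitor values all above the control values (adjusted p = 0.639 in limma), and ESRRA, a nuclear receptor, at −0.12 ± 0.081. YY1 and NRF1, whose motifs were also searched, lay at −0.14 and −0.078. They are given outside the rule for named genes, and neither had an unadjusted p under 0.05 in limma. The proteins of the mitoribosome that carry other names and were not taken by the rule, CHCHD1 and GADD45GIP1, lay at −0.022 ± 0.073 and 0.061 ± 0.12, and AURKAIP1 had no named probe.

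The respiratory chain and the cytosolic ribosome, the nearest gene families, are set beside these values. Of 69 nuclear genes for oxidative phosphorylation subunits, 47 lay below 0 (median −0.032), and 4 of them were below 0 at an unadjusted p under 0.05, with 0 above it. The 2 with the smallest p were COX8A, a subunit of complex IV, at −0.19 ± 0.069, and NDUFA13, a subunit of complex I, at −0.17 ± 0.063. Of 71 cytosolic ribosomal protein genes, 34 lay below 0 (median 0.013), and 3 were below 0 at an unadjusted p under 0.05, with 0 above it. Over all genes tested 4.15% were lower and 3.50% higher at that p. The 2 cytosolic ribosomal genes with the smallest p were RPS6 at −0.18 ± 0.074 and RPL37 at −0.21 ± 0.091. None of these genes passed the adjusted test in limma, and the difference between the families was not tested.

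**Figure D5:**
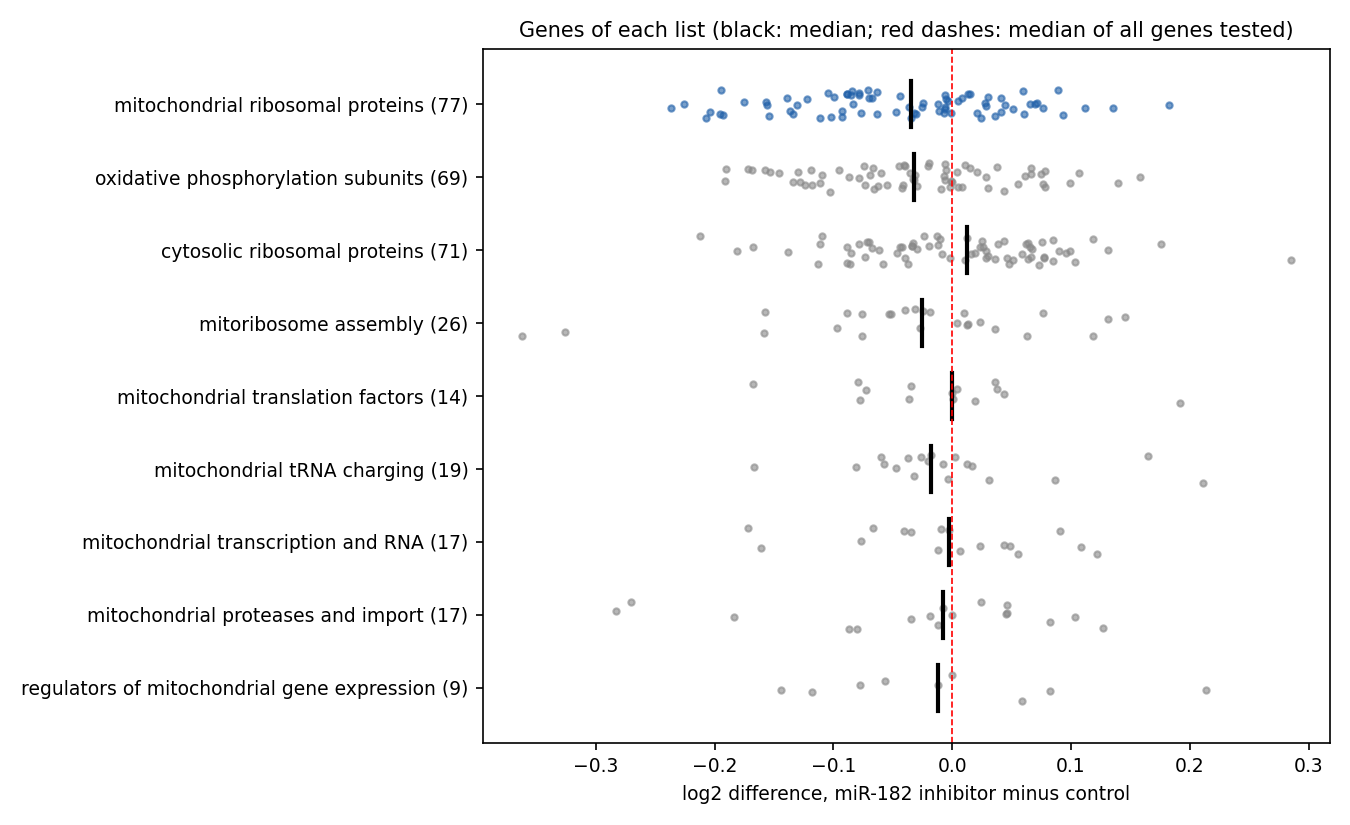
Log2 difference (horizontal axis, inhibitor minus control) of each tested gene in 9 lists (vertical axis, number of genes in brackets), with the list's median in black and the median of all genes tested as red dashes. The medians run from −0.035 for the mitochondrial ribosomal proteins to 0.013 for the cytosolic ones.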

How the data were processed

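Per the file headers, each array file holds for every probe its mean intensity, a bead standard deviation, a bead number and a detection value. The deposited intensities are linear and show no sign of normalization, and the deposited detection value is a fraction that rises with the signal, so 1 minus it was used as a detection p. BeadStudio is the tool named, with no version, per the submitters' processing notes. The authors' value table holds intensities put onto 1 distribution, by a method not given in the sources used here. Array files and table were joined by the ranks of each probe on the 6 arrays, which were unique for all 48803 probes. Genes were named from the platform annotation at GEO, in which 28098 probes had 1 gene, 13 several and 20692 none.

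Intensities were corrected and quantile normalized with neqc (offset 16) in limma 3.58.1 under R 4.3.3. A probe entered where it was detected on at least 3 of 6 arrays at a detection p under 0.05, and each gene was represented by its brightest probe, leaving 12087 genes. Groups were compared with lmFit and eBayes (2-sided, Benjamini-Hochberg over all genes, threshold 0.05). The fit was run on simulated independent values with added differences, without the normalization step. Its pass mark was set on differences larger than those of the members, so passing it does not show power at their size. The number of arrays limits the precision, and p-values measure the spread between cultures labelled as biological replicates. Arrays were not paired. Members and gene lists were chosen with earlier results of these data known. Named genes are the 10 members per direction with the smallest p, members whose probes disagree in sign with 1 at an unadjusted p under 0.05, 10 members chosen for their place in the particle, and the 2 genes with the smallest p of each other list.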

Additional observations from a re-analysis of the deposited data

How the results depend on the processing

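No mitochondrial ribosomal protein gene passed the adjusted test under any alternative, and their median lay below 0 in all of them. With the replicate number as a block, 0 genes and 0 members were called, 52 members lay below 0 and the median was −0.035. The members at an unadjusted p under 0.05 again numbered 6, but 1 of them was higher with the inhibitor, against 0 without the block. Pairing by number thus changed no call past the adjusted test, but it did change which members had such a p. Same-numbered arrays did not deviate together (correlations over genes 0.020, 0.0032 and −0.0060), and 0 of the 6 correlated best with the array of its own number. Over all genes limma called 5 when arrays were not normalized and 7 with median scaling, against 0 as reported. The members' median was −0.075 and −0.099 under these settings. The count at an unadjusted p under 0.05 was 1 in unnormalized arrays, 12 without background correction and 12 with an intensity trend and robust prior. Of all genes tested, 2.63%, 8.25% and 8.22% had such a p under these settings, and 7.28% with the replicate block. With 1 array left out, the members' count ran from 1 to 6 and the share of all genes tested from 5.52% to 8.78%. The members' median then ran from −0.061 to −0.026, the members below 0 from 48 to 52, and 49 of 77 members kept their sign. Among named members, leaving out 1 array turned the sign of 3, whose differences then ranged as follows: MRPL12 from −0.047 to 0.077, MRPL58 from −0.091 to 0.15, MRPS30 from −0.040 to 0.058. MRPS30 lay at −0.022 in unnormalized arrays and at −0.045 with median scaling, where MRPL51 (−0.0060) and MRPL58 (−0.00083) turned too. MRPL12 turned to 0.016 with array quality weights and MRPL57 to −0.15 with its second probe. The other members named by the rule, for which alone single-gene values were recomputed, kept their sign under the deposited value table, no detection filter, detection on all 6 arrays and the settings above. The cause of these moves was not tested. Signal near background limits what can be said of PTCD3.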
